A study of Bos taurus with 32 samples.

Results

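Genes for taking up and carrying lipid were examined in the endometrium of repeat breeder (RB) and normally fertile (non-RB) Japanese Black cows. The genes were VLDLR, CD36, SCARB1, LPL, FABP3, FABP4, FABP5, APOE and PPARG, chosen by name with earlier results of these data known. Of these 9 names 8 were found among the gene names of the 15208 gene probes on the array, each with 1 probe. FABP3 was found through the accession of its probe, whose gene name in the files is a variant spelling, and it is therefore described beside the other 8 and counted apart. RB cows had not conceived after repeated inseminations in spite of visible estrus and a uterus and ovaries that felt healthy on palpation. Non-RB cows had conceived, their pregnancy was then ended with the prostaglandin analogue cloprostenol, and they had since returned to normal cycles, a history that RB cows did not share. All cows were non-lactating, had calved before, were not pregnant and were killed on Day 15 of the cycle, in the mid-luteal phase. From each cow the caruncles (CAR, the raised areas at which the placenta attaches) and the intercaruncular, glandular endometrium (ICAR) were dissected from the horn ipsilateral and the horn contralateral to the corpus luteum, which gives 4 compartments, with 4 RB and 4 non-RB arrays in each and 32 arrays in all. The question put to these genes was whether their mRNA differed between RB and non-RB cows, between CAR and ICAR and between the horns.

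Lipid reaches a cell by several routes. Lipoprotein lipase, bound to the wall of capillaries, releases fatty acids from triglyceride-rich particles, and lipoprotein receptors such as VLDLR bind particles that carry apolipoprotein E. SCARB1 takes cholesteryl ester selectively from HDL, CD36 carries long-chain fatty acids across the membrane, FABPs bind them in the cytosol, and PPARG is a nuclear receptor for fatty acid derivatives that controls genes of lipid uptake and storage. In ruminants the endometrium of the luteal phase holds lipid droplets and feeds the early embryo through its secretions.

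Each gene was measured by 1 probe of 60 bases, so what is called a level here is the brightness of that stretch of the transcript, and levels of different genes are not set against each other. The last 30 bases of the probes of the 3 receptors, of APOE and of LPL are given as the files write them, since the comparisons below turn on the receptors, and APOE and LPL stand at the bright and the dim end. Capitals mark AATAAA, the common polyadenylation signal.
VLDLR: atggcaataggataaaacgggttactaagg
SCARB1: aaataattcacaattgaagtAATAAAcctt
CD36: tggcaccttcagaatgctgtgctagtacta
APOE: gccctagcttAATAAAgatttctcaagctt
LPL: tgcggtgatccatggctggacggtgacagg
The letters AATAAA were present in the probes of SCARB1 and APOE. They stood in 11.3% of all 15208 probes as written, and in 4.14% on the complementary strand. G and C made up 23.3% of the SCARB1 probe, against a median of 43.3% over all probes. No position in the genome is given, because no genome of the array's design was used here.

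The 75th percentile of intensity, to which every log2 value is scaled, lay between 1165 and 4857 units, and 74.3% to 85.8% of probes were well above background. Slide 1, which held non-RB CAR contralateral replicate 2 and non-RB ICAR contralateral replicate 1, was uneven. The SD over 100 probes of 1 shared sequence was 0.87 to 1.32 on its arrays and at most 0.54 on the others. Only slides 6 and 8 of the 8 slides held arrays of both RB and non-RB cows, so within-slide values rest on these. Slide 6 sets RB replicate 4 against non-RB replicate 3 each time, and slide 8 sets RB replicate 1 against non-RB replicate 1 or 2. Slide and cow cannot be told apart in these values. The probes of VLDLR, CD36, FABP3, FABP5, APOE and PPARG were well above background on all 32 arrays, that of SCARB1 on 31, that of FABP4 on 26 and that of LPL on 2. All samples are dissected tissue, in which fewer cells of a type and less RNA per cell cannot be told apart.

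**Figure D1:**
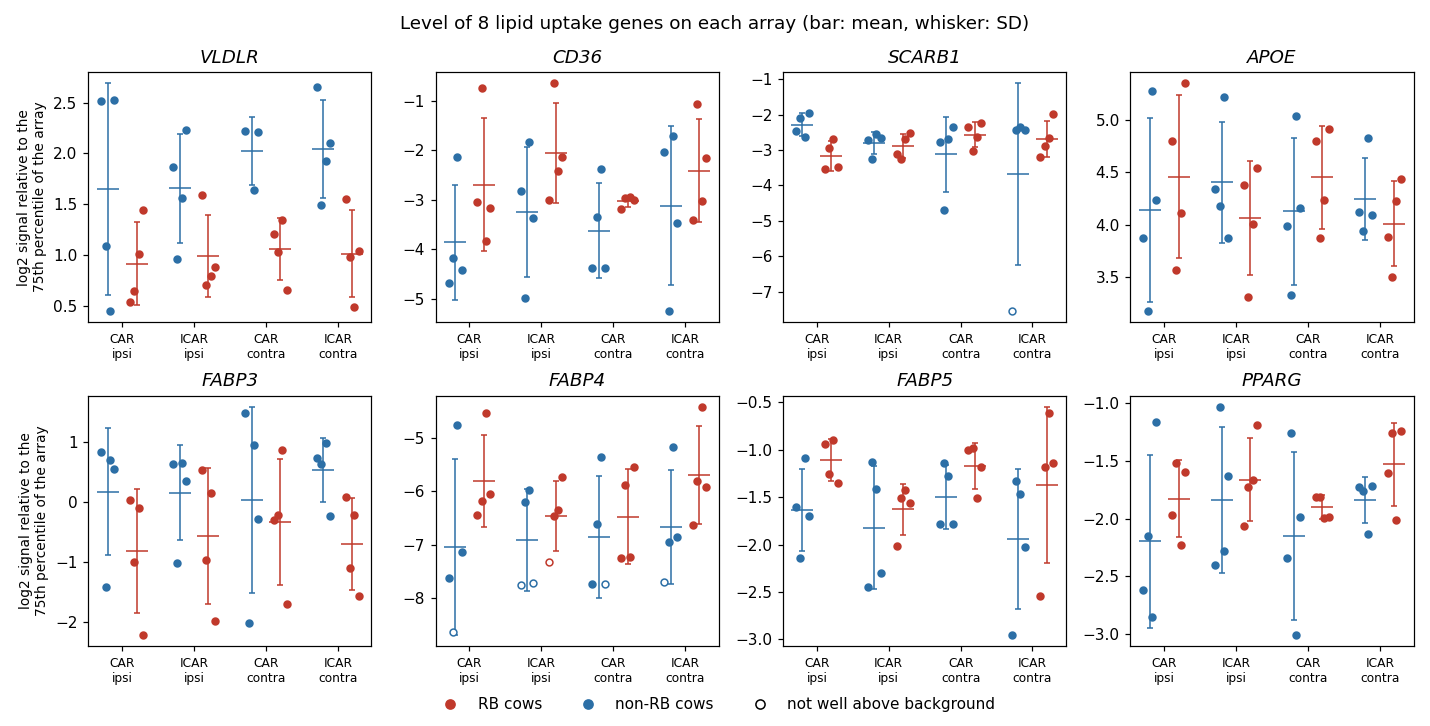
Log2 signal over the array's 75th percentile (vertical axis) in the 4 compartments (horizontal axis) for 8 genes, a point for each array, with the mean as a bar and the SD as a whisker for RB and non-RB cows. The RB and non-RB points of VLDLR in CAR contralateral and of SCARB1 in CAR ipsilateral do not overlap, and the lowest SCARB1 point, at -7.55, is an array of slide 1.

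VLDLR, the receptor for VLDL and other particles with apolipoprotein E, was the gene whose mean was lower in RB cows in 4 of 4 compartments with an unadjusted limma p under 0.05 in more than 1 of them. In CAR contralateral the RB arrays, replicates 1 to 4, stood at 1.20, 1.03, 1.35 and 0.65. The 3 non-RB arrays with a value stood at 2.22, 1.64 and 2.22, and the spot of non-RB replicate 2, on slide 1, carried an outlier flag and was left out. The groups did not overlap in this compartment. The difference was -0.96 on the log2 scale, 1.95-fold lower in RB cows (SE 0.28, n = 4 against 3, limma unadjusted p = 0.00863, adjusted p = 1.0, two-sided exact permutation p = 0.0571, the smallest that this design allows). With the flag ignored that spot stood at -0.62, below the 4 RB arrays, and the difference was -0.30 (SE 0.59), not past the unadjusted limit of 0.05.

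In ICAR contralateral VLDLR stood at 1.55, 0.98, 0.49 and 1.04 in RB cows. In non-RB cows it stood at 2.65, 1.49, 1.92 and 2.11, so that the lowest non-RB array lay just under the highest RB array. The difference was -1.03, 2.04-fold lower in RB cows (SE 0.32, limma unadjusted p = 0.0108, adjusted p = 1.0, two-sided exact permutation p = 0.0571). With the slide as a block it was -0.41 (SE 0.35), and with the month of the scan as a block -0.53 (SE 0.31), neither of which passed the unadjusted limit. Within slide 6, 1 RB array against 1 non-RB array differed by -0.88, and within slide 8 by 0.05. In CAR contralateral the slide as a block gave -1.0 (SE 0.24), which passed it, and the differences within slides 6 and 8 were -0.98 and -1.02.

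In the ipsilateral horn the RB and non-RB arrays of VLDLR overlapped. RB cows stood at 0.54, 0.65, 1.01 and 1.45 in CAR and at 1.59, 0.70, 0.79 and 0.88 in ICAR. Non-RB cows stood at 2.52, 1.09, 0.45 and 2.52 in CAR and at 1.87, 0.96, 1.56 and 2.23 in ICAR. In CAR the lowest of the 8 arrays was thus a non-RB array. Averaged over the compartments of a cow, VLDLR stood at 0.99 ± 0.16 for RB and at 1.79 ± 0.59 for non-RB cows (SD, n = 4 each). The cow means were 1.22, 0.84, 0.91 and 1.0 in RB cows. They were 2.31, 1.18, 1.39 and 2.27 in non-RB cows. Non-RB replicates 1, 3 and 4 lay above all RB cows, replicate 3 only narrowly. Non-RB replicate 2, a mean of 3 arrays without the flagged spot, lay within the RB span. The difference was -0.80, 1.74-fold lower in RB cows (SE 0.28, limma unadjusted p = 0.0178, adjusted p = 1.0, two-sided exact permutation p = 0.0571). Without non-RB replicate 4 it was -0.64 (SE 0.28), and with outlier-flagged spots kept -0.68 (SE 0.34), and neither passed the unadjusted limit. The mean difference was -0.85 within slide 6 and -0.11 within slide 8.

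Ordered by mean, the 4 non-RB means of VLDLR, 1.65 to 2.04, came before the 4 RB means, 0.91 to 1.06. The gap between the lowest non-RB and the highest RB mean was 0.59, above the pooled SD of 0.55, and the other 6 of 7 gaps between neighbours were below it. For each of the other 8 genes all 7 gaps were below the pooled SD. The mean of VLDLR was 1.37 ± 0.71 (SD, n = 15 arrays) in CAR and 1.43 ± 0.62 (SD, n = 16) in ICAR.

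SCARB1, the HDL receptor, was lower in RB cows in CAR ipsilateral, the other comparison in which RB and non-RB arrays did not overlap. RB arrays stood at -3.54, -2.94, -2.68 and -3.48. Non-RB arrays stood at -2.46, -2.09, -2.63 and -1.94, and the highest RB and the lowest non-RB array were close together. The difference was -0.88, 1.84-fold lower in RB cows (SE 0.29, n = 4 against 4, limma unadjusted p = 0.0128, adjusted p = 1.0, two-sided exact permutation p = 0.0286, the smallest that this design allows). With the slide as a random block it was -0.95 (SE 0.33), past the unadjusted limit. With all 32 arrays in a single fit, whose spread includes the arrays of slide 1, it had the same size with an SE of 0.70 and did not pass. No slide held RB and non-RB arrays of this compartment, and within the 2 months of scan that did the differences were -0.78 and -1.55. The mean of 11 epithelial marker probes on the same arrays was -0.49 to -0.04 in RB cows and -0.09 to 0.52 in non-RB cows, and its part in the difference was not tested.

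In the other compartments SCARB1 overlapped between RB and non-RB cows. RB means were -2.90 ± 0.34 in ICAR ipsilateral, -2.56 ± 0.36 in CAR contralateral and -2.68 ± 0.51 in ICAR contralateral (SD, n = 4 each). Non-RB means were -2.79 ± 0.31, -3.12 ± 1.06 and -3.68 ± 2.58 in the same order (SD, n = 4 each). The last 2 hold an array of slide 1 each, at -4.68 and at -7.55, the latter not well above background. The whole uterus difference of 0.15 became -0.29 without these arrays, and the difference of the RB effect between horns, -1.28, became -0.37.

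CD36, the fatty acid translocase, had a higher mean in RB than in non-RB cows in 4 of 4 compartments, but its arrays overlapped in each and no test was passed. In CAR ipsilateral RB arrays stood at -3.04, -0.74, -3.83 and -3.17 and non-RB arrays at -4.69, -4.17, -2.14 and -4.42. In CAR contralateral the values were -3.19, -2.96, -2.95 and -3.01 in RB cows and -4.39, -3.35, -2.38 and -4.38 in non-RB cows. The RB arrays there lay within the span of the non-RB arrays. In ICAR ipsilateral RB arrays stood at -3.01, -0.64, -2.42 and -2.14 and non-RB arrays at -2.81, -4.99, -1.84 and -3.36. In ICAR contralateral they stood at -3.42, -1.06, -3.02 and -2.15 and at -2.04, -5.25, -1.70 and -3.48. RB replicate 2 was highest of its group in 3 of 4 compartments, and non-RB replicate 3 was highest of its group in 4 of 4. The mean difference was -0.46 within slide 6 and 1.67 within slide 8, and so opposite in sign. The non-RB arrays of slide 6 are all of replicate 3, the highest of its group. Within the 3 months of scan that held both groups the mean difference was 1.59, 0.63 and 1.67, the last from the same arrays as slide 8.

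LPL, lipoprotein lipase, was close to the floor of the measurement. Its probe was well above background on 2 arrays, non-RB replicate 2 in CAR ipsilateral at -5.51 and in CAR contralateral at -7.08, and on 0 of the 16 RB arrays. On the other 30 arrays it lay between -10.69 and -7.17. LPL was therefore left out of the tests, and its low signal gives a limit and not a level.

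APOE, the ligand of VLDLR on particles and a product of macrophages among other cells, gave a bright signal in every compartment. Its means ran from 4.01 to 4.46 in RB cows and from 4.13 to 4.40 in non-RB cows. Averaged over compartments RB cows had 4.24 ± 0.53 and non-RB cows 4.23 ± 0.61 (SD, n = 4 each). The spread of APOE lay between cows: RB replicate 4 was highest and replicate 2 lowest of the RB arrays in 4 of 4 compartments, and non-RB replicate 3 was highest of the non-RB arrays in 4 of 4. Of the sum of squares within group and compartment, 84.9% lay between replicate numbers, against a median of 47.7% over all probes tested. The cow means were 4.46, 3.57, 4.14 and 4.81 in RB cows and 4.08, 3.66, 5.08 and 4.09 in non-RB cows.

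The fatty acid binding proteins did not move alike. FABP3, the heart-type protein, was lower in RB cows in ICAR contralateral, where RB arrays stood at 0.09, -1.1, -0.22 and -1.57. Non-RB arrays stood at 0.74, 0.63, 1.0 and -0.23, and the lowest of them lay below 2 RB arrays. The difference was -1.23, 2.35-fold lower in RB cows (SE 0.42, n = 4 against 4, limma unadjusted p = 0.0175, adjusted p = 1.0, two-sided exact permutation p = 0.0857). With the slide as a block it was -1.55 (SE 0.60), with the month of the scan -1.34 (SE 0.55) and with all 32 arrays in a single fit -1.23 (SE 0.69), none of which passed the unadjusted limit. Within slide 6 the difference was -2.56 and within slide 8 -0.54. RB replicate 4 was the lowest RB array for FABP3 in 4 of 4 compartments, at -1.57 to -2.21. In the other compartments RB means of FABP3 were -0.82 ± 1.04, -0.56 ± 1.14 and -0.34 ± 1.05 in CAR ipsilateral, ICAR ipsilateral and CAR contralateral, and non-RB means were 0.17 ± 1.06, 0.16 ± 0.79 and 0.04 ± 1.55 (SD, n = 4 each). All of these overlapped.

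FABP4, the adipocyte and macrophage form, and FABP5, the epidermal form, had higher means in RB cows in 4 of 4 compartments, with overlap in each and without a limma p under 0.05. The lowest FABP4 mean was -7.04 ± 1.65 (SD, n = 4) in non-RB CAR ipsilateral and the highest -5.69 ± 0.92 (SD, n = 4) in RB ICAR contralateral. Non-RB replicate 3 was the highest non-RB array for FABP4 in 4 of 4 compartments, as it was for CD36. FABP5 means ran from -1.63 to -1.11 in RB cows and from -1.94 to -1.50 in non-RB cows. FABP5 had a higher mean in CAR than in ICAR in 6 of 8 cows, with -1.35 ± 0.36 over CAR and -1.69 ± 0.63 over ICAR arrays (SD, n = 16 each).

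PPARG, the regulator, had RB means of -1.90 to -1.53 and non-RB means of -2.20 to -1.84, which overlapped in every compartment. PPARG was lower in CAR than in ICAR in 7 of 8 cows, with -2.02 ± 0.52 over CAR and -1.72 ± 0.40 over ICAR arrays (SD, n = 16 each). CD36 was lower in CAR in 6 of 8 cows, with -3.30 ± 1.02 and -2.71 ± 1.25 (SD, n = 16 each). APOE was higher in CAR in 6 of 8 cows. None of these differences, nor that of FABP5, passed limma over the 32 arrays without a term for the cow. The two-sided exact sign-flip test over the cows gave p = 0.0234 for PPARG, 0.133 for CD36, 0.148 for FABP5 and 0.516 for APOE. These sign-flip values are not adjusted for the number of genes.

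**Figure D2:**
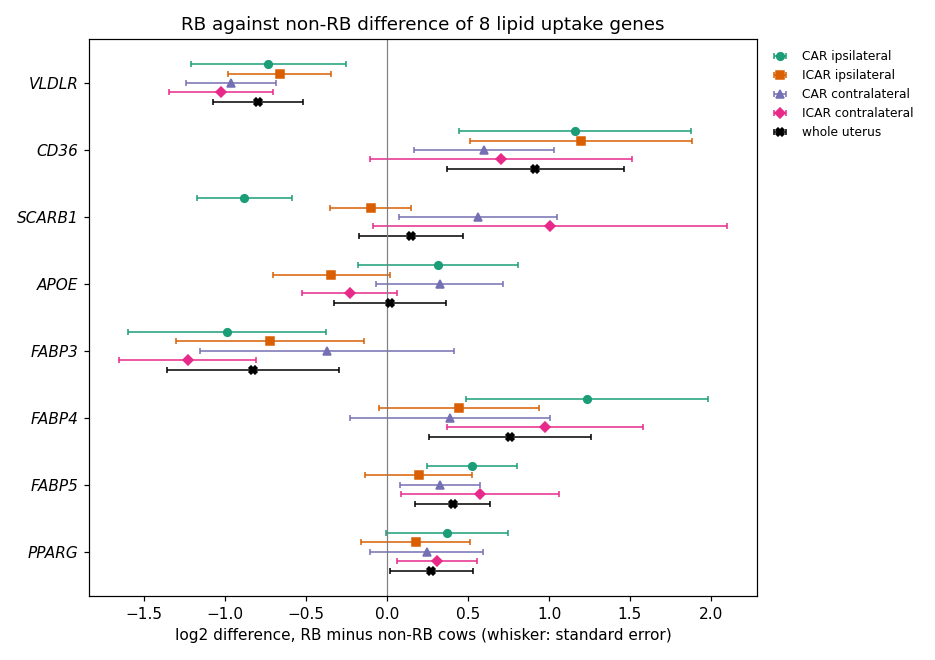
Log2 difference of RB minus non-RB cows (horizontal axis) for 8 genes (vertical axis), a marker for each compartment and for the whole uterus, with the standard error as a whisker. The VLDLR and FABP3 markers all lie below 0, those of CD36, FABP4, FABP5 and PPARG all above 0, and those of SCARB1 and APOE on both sides.

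Counted over the 7 genes matched by name and tested, 0 had an adjusted p under 0.05 in any of the 9 comparisons. At an unadjusted limma p under 0.05 there was 1 of 7 in CAR ipsilateral, SCARB1, 0 of 7 in ICAR ipsilateral, and VLDLR alone in CAR contralateral, ICAR contralateral and the whole uterus. Over all probes tested the percentages at that limit were 3.41% in CAR ipsilateral, 3.69% in ICAR ipsilateral, 1.74% in CAR contralateral, 1.6% in ICAR contralateral and 2.21% in the whole uterus. The share of 1 in 7 rests on a single gene each time. In the same 5 comparisons 0.0% of all probes had an adjusted p under 0.05. Arrays of RB and non-RB cows did not overlap for 1 of 7 genes in CAR ipsilateral and 1 of 7 in CAR contralateral, against 1.97% and 1.37% of all probes, and for 0 of 7 in ICAR ipsilateral and ICAR contralateral, against 2.23% and 1.48%. Ranked by limma p, VLDLR was probe 31 of 13135 in CAR contralateral and 37 of 12980 in ICAR contralateral, and SCARB1 was 85 of 13080 in CAR ipsilateral. The genes were chosen with earlier results of these data known, and the paper lists VLDLR among its down-regulated genes in CAR contralateral. These ranks and shares are therefore descriptions and not independent support. The median difference of the 7 genes was 0.37 in CAR ipsilateral, 0.18 in ICAR ipsilateral, 0.33 in CAR contralateral and 0.57 in ICAR contralateral, while the median over all probes lay between -0.03 and 0.02. The genes with a positive difference, 5 of 7 in CAR ipsilateral, 4 of 7 in ICAR ipsilateral, 6 of 7 in CAR contralateral and 5 of 7 in ICAR contralateral, did not pass the test. In the contralateral horn they included SCARB1, whose non-RB means hold the arrays of slide 1. The 4 compartments of a group are from the same cows and are not separate evidence.

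Between CAR and ICAR, 0 of the 7 genes had an unadjusted limma p under 0.05, against 16.2% of all probes, and 0 an adjusted p under 0.05, against 1.35%. This fit leaves out that CAR and ICAR come from the same cows. With the replicate number within each group as a block, 3 of the 7 passed the unadjusted limit, PPARG (-0.30, SE 0.11) and CD36 (-0.59, SE 0.24) lower in CAR and FABP5 (0.34, SE 0.14) higher, and 0 passed the adjustment, while the probes that did went from 174 to 1086. The share of all probes at the unadjusted limit is not given for the blocked fit. It was 16.2% without the block, and the calls after adjustment rose with the block. The 3 of 7 is therefore not read as a share above that of the array. Between the horns the count was 0 of 7 at the unadjusted limit against 1.36% of probes, and 0.0% of probes passed the adjustment. The difference of the RB effect between CAR and ICAR was under the unadjusted limit for 0 of 7 genes and 0.728% of probes, and that between horns for 0 of 7 genes and 1.19% of probes. Neither had a probe that passed the adjustment (0.0%). For VLDLR the RB effect in the ipsilateral horn minus that in the contralateral horn was 0.30 (SE 0.37), so that the effects of the horns are not shown to differ.

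**Figure D3:**
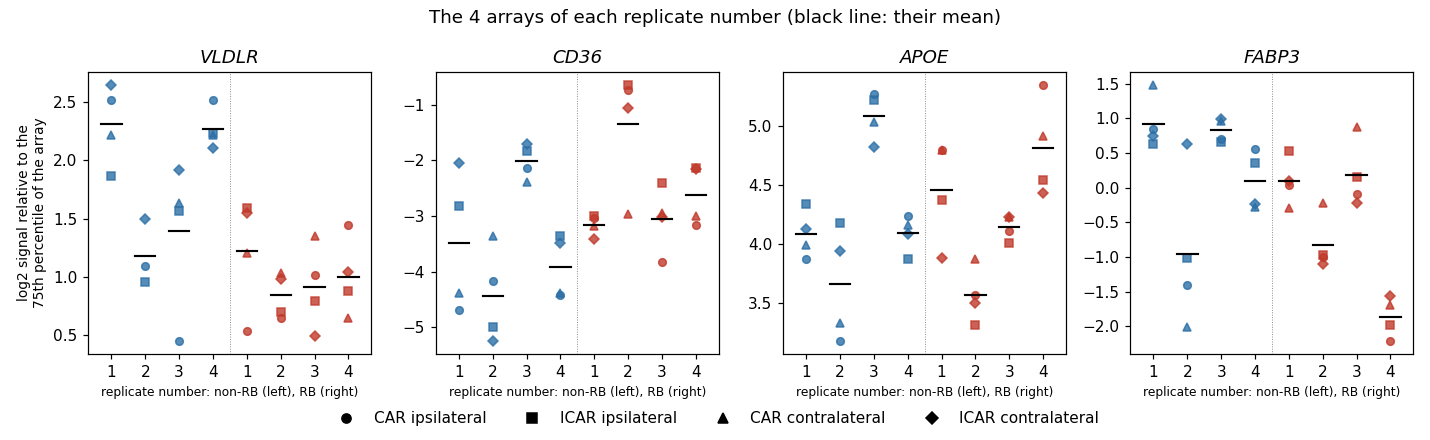
Log2 signal over the array's 75th percentile (vertical axis) for the arrays of each replicate number (horizontal axis, non-RB on the left, RB on the right) for VLDLR, CD36, APOE and FABP3, with a symbol for each compartment and a black line for their mean. The arrays of APOE lie close together within most replicate numbers. Those of FABP3 non-RB replicate 2 spread from -2.01 to 0.63, and those of VLDLR non-RB replicate 3 from 0.45 to 1.92.

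The genes differed in how much of their spread was shared by the arrays of a replicate number, which is taken as a cow. The share of the sum of squares within group and compartment was 84.9% for APOE, 77.9% for FABP3, 67.3% for CD36, 65.7% for FABP4, 62.0% for PPARG, 55.7% for VLDLR, 42.5% for FABP5 and 24.8% for SCARB1. These shares are given without a test, and arrays of a replicate number often shared a slide as well. Across arrays VLDLR ran against FABP5 (Pearson's r = -0.67, Spearman's rho = -0.70, 31 arrays) and against FABP4 (r = -0.59, rho = -0.60). VLDLR and FABP3 ran together (r = 0.52, rho = 0.51). The arrays share 8 cows, 8 slides and a scaling, so these are descriptions.

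For each gene the 3 named genes of most similar pattern were taken by Pearson's r from 3629 candidate probes. For VLDLR, over 31 arrays, they were HK1, a hexokinase of glycolysis (r = 0.93), UMPS of pyrimidine synthesis (r = 0.86) and SCD, the stearoyl-CoA desaturase (r = 0.85). For the other genes, over 32 arrays, they were ASIP, TBATA and CFAP126 for CD36 (r = 0.75, 0.73 and 0.68), and GPLD1, QPRT and CRYGS for FABP3 (r = 0.87, 0.87 and 0.84). For FABP4 they were FIBIN, PRKG1 and EIF1AX (r = 0.80, 0.74 and 0.74), and for FABP5 ECRG4, IRAG1 and GHR (r = 0.83, 0.82 and 0.79). For APOE they were INHBA, RPL10 and EEF1B2 (r = 0.82, 0.76 and 0.74), and for PPARG GJA5, ANXA3 and AHR (r = 0.84, 0.75 and 0.75). For SCARB1 they were FKBP11, PRNP and PRKAB1 (r = 0.93, 0.90 and 0.90), but with Spearman's rho 0 of these 3 were named, and the arrays of slide 1 are among the extremes of its values. With rho, HK1 and SCD stayed among the 3 for VLDLR, only IRAG1 for FABP5 and only INHBA for APOE. For CD36, FABP3, FABP4 and PPARG 2 of the 3 stayed.

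Markers of cell types that could carry these genes were read on the same arrays. Of 6 adipocyte probes, ADIPOQ was well above background on 0 of 32 arrays, CIDEC on 1, LEP on 2 and LIPE on 3, while RETN was on 31 and GPD1 on all 32. The adipocyte list's mean level was -7.50 to -6.41 over RB and -7.43 to -6.20 over non-RB arrays. Endothelial markers, of the cells whose surface holds LPL, were well above background on all 32 arrays for 8 of 9 probes, with a list mean of -3.64 to -2.67 over RB and -3.71 to -2.51 over non-RB arrays. Of 9 macrophage probes 6 were well above background on all arrays, ITGAM was on none, and the list mean was -3.76 to -2.87 over RB and -4.45 to -2.76 over non-RB arrays. All 11 epithelial, 8 stromal and 7 smooth muscle probes were well above background on all arrays. Of 5 red blood cell probes 2 were on all arrays and HBB on none, with a list mean of -6.77 to -5.47 over RB and -6.85 to -5.38 over non-RB arrays. The epithelial list was -0.86 to 1.08 over RB and -0.75 to 1.12 over non-RB arrays, the stromal list 0.09 to 1.38 and -0.08 to 1.07, and the smooth muscle list 0.09 to 0.98 and -0.38 to 1.28. The ranges of RB and non-RB arrays overlapped for every list, and their part in the differences above was not tested.

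Other genes of lipid handling were counted on 7 lists with 75 probes of 73 genes, covering other lipoprotein receptors, lipases, fatty acid transport, apolipoproteins, nuclear receptors, lipid storage and fatty acid synthesis, and cholesterol synthesis. None of these probes had an adjusted limma p under 0.05 in any comparison, so the genes named in the next paragraph were chosen after their values were seen, for an unadjusted p under 0.05. In CAR ipsilateral 8 of 68 probes tested were lower in RB cows at that limit and 0 were higher, which is 11.8% against 3.41% of all probes. Without LRP8, described in the next paragraph, the count was 7 of 67 (10.4%), and these 7 probes were well above background on all 32 arrays. In ICAR ipsilateral 3 of 67 were lower (4.48%, against 3.69% of all probes), and in CAR contralateral 1 of 68 was higher (1.47% against 1.74%). In ICAR contralateral 1 was higher and 2 lower of 66 (4.55% against 1.6%). In the whole uterus the count was 0 of 67, against 2.21% of all probes. The median difference of the probes was -0.14 in CAR ipsilateral and -0.22 in ICAR ipsilateral, against 0.02 and -0.03 over all probes.

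In CAR ipsilateral the 8 probes were of the fatty acid synthesis enzymes FASN (-0.82), ACACA (-0.70) and ACACB (-0.64), of the cholesterol synthesis enzymes PMVK (-0.86) and FDFT1 (-0.69 on each of its 2 probes), of the triglyceride lipase PNPLA2 (-0.65) and of the apolipoprotein E receptor LRP8. LRP8 was well above background on 2 of 4 non-RB and 0 of 4 RB arrays there, so it entered the test only through the group in which it is higher, and no difference is given for it. In ICAR ipsilateral they included ACACA (-0.55) and TM7SF2, a sterol reductase (-1.22). LIPC, the hepatic-type lipase, stood 1.80 higher in RB cows in CAR contralateral. In ICAR contralateral DGAT2, which makes triglyceride, stood 1.1 higher, and SCD (-1.06) and FDFT1 (-0.71) lower. Between CAR and ICAR 7 of 67 probes were higher and 4 lower, 16.4% against 16.2% of all probes, a share near that of the array as a whole. Between the horns the count was 1 of 67 (1.49%, against 1.36% of all probes). The RB effect differed between CAR and ICAR for 2 of 67 (2.99% against 0.728%) and between horns for 4 of 67 probes (5.97% against 1.19%). Between horns these 4 were all negative, and over all probes 142 were negative and 12 positive. Both arrays of the uneven slide 1 are non-RB contralateral, and their part in this count was not tested. All of these counts are at the unadjusted limit.

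**Figure D4:**
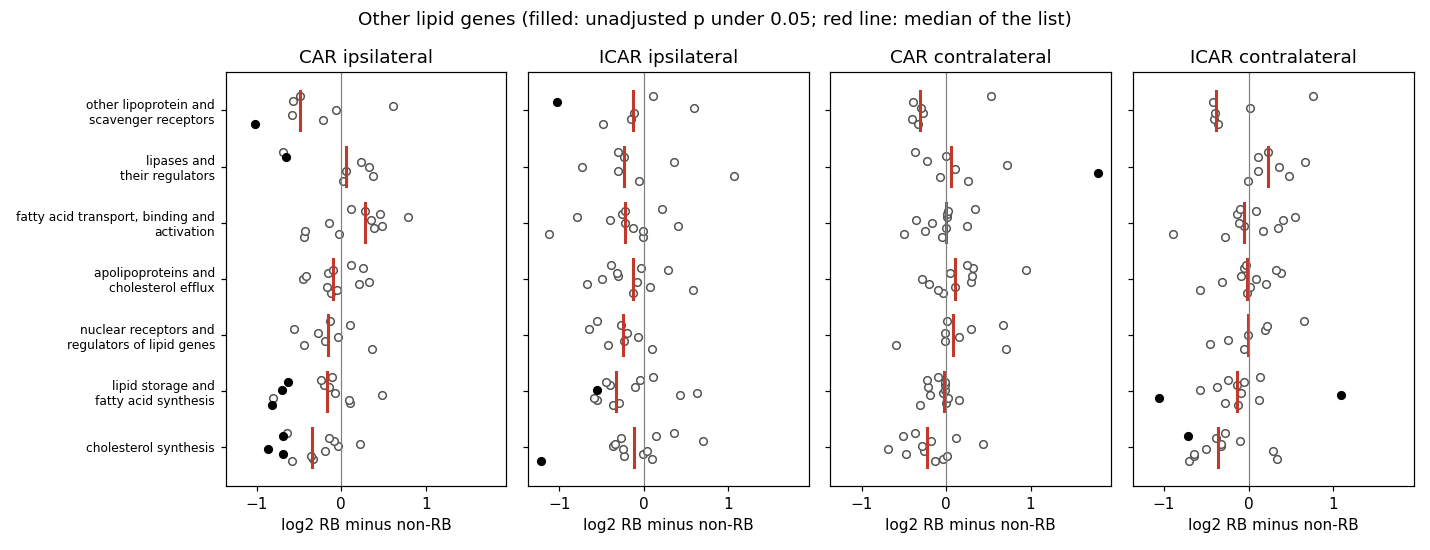
Log2 difference of RB minus non-RB cows (horizontal axis) for the probes of 7 lists of other lipid genes (vertical axis) in the 4 compartments, a circle for each probe, filled where the unadjusted limma p was under 0.05, with the list's median as a red line. In CAR ipsilateral the 8 filled circles all lie below 0, and in CAR contralateral the single filled circle is LIPC at 1.80.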

How the data were processed

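RNA was measured on 32 single-colour (Cy3) custom Agilent arrays with 1 spot per probe. The authors deposited the intensity of each spot from Agilent Feature Extraction 9.5, background-subtracted and detrended but not normalized between arrays. A deposited table of log2 values equals that log2 intensity less the array's 75th percentile, up to an array constant. Here log2 processed intensity minus the array's 75th percentile was used, without control spots, with outlier-flagged spots left out and saturated spots kept. Dim spots have only a bound, which compresses differences near the floor. Probes were tested where well above background on at least 2 of 8 arrays (8 of 32 over all arrays) with at least 3 values per group. RB and non-RB cows were compared within each compartment, and on cow means for the whole uterus, with limma 3.58.1 in R 4.3.3 (Benjamini-Hochberg over all probes). The methods give 4 RB and 4 non-RB cows as separate animals. Arrays of 1 group that share a replicate number were treated as coming from a single cow, although no label says so. CAR against ICAR, the horns and interactions were fitted on 32 arrays. Genes also had two-sided exact permutation tests (scipy 1.17.1), and between CAR and ICAR and between the horns two-sided exact sign-flip tests over the cows. The t-test of the methods, other normalizations, filters and blocks were alternatives. So was the removal of each replicate, where at least 3 values per group remained. Other filters leave a gene's difference as it was. Taking the 32 arrays as independent samples for the whole uterus counts each cow more than once. Pairing RB with non-RB cows by number is not given by the design. Passing such refits is no sign of robustness. Keeping outlier-flagged spots and leaving out slide 1 were chosen after seeing the data. With the scan month as a block, arrays from a month without both groups do not enter the RB difference. In CAR ipsilateral this was non-RB replicate 3. It was the highest non-RB array there for CD36 (-2.14), FABP4 (-4.75) and FABP5 (-1.09), and the lowest for VLDLR (0.45). The share of all probes under the unadjusted limit is not given for the fits with a block. The number of arrays limits the precision.

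The genes and lists were chosen with earlier results of these data known. All 9 genes were named, with a test where the unadjusted limma p was under 0.05, and of the other lists genes with an adjusted p under 0.05 (0 met this in any comparison). The values of 1 gene of the other lists are not reported here. Fits were tested on simulated data.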

Additional observations from a re-analysis of the deposited data

Results flagged for a closer look

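3 values stood apart within their group of 4 by the ratio of their gap to the group's range. In non-RB ICAR contralateral, SCARB1 was lowest in replicate 1, at -7.55, on the uneven slide 1 and not well above background. In non-RB CAR ipsilateral, FABP3 was lowest in replicate 2, at -1.41, and in non-RB ICAR contralateral, PPARG was lowest in replicate 3, at -2.13. Groups of 4 were examined 63 times, and chance marks about 1 in 20.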

How the results depend on the processing

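Of 92 refits of the 5 differences named for VLDLR, SCARB1 and FABP3, 83 kept their direction and an unadjusted limma p under 0.05, 9 kept the direction only and 0 reversed. Other filters, and removing the replicate whose flagged spot was already left out, could not move a difference. The 83 is therefore no measure of robustness. For VLDLR in CAR contralateral only 5 replicate removals were fitted, none of a non-RB array with a value, since too few would remain. Whether this difference holds without such an array is therefore not shown. Keeping outlier-flagged spots gave VLDLR -0.30 (SE 0.59) in CAR contralateral and -0.68 (SE 0.34) in the whole uterus. Slide and scan month as blocks gave VLDLR -0.41 and -0.53 in ICAR contralateral (SE 0.35 and 0.31), and FABP3 -1.55 and -1.34 there (SE 0.60 and 0.55). All 32 arrays in 1 fit left SCARB1 at -0.88 (SE 0.70) and FABP3 at -1.23 (SE 0.69). Leaving out non-RB replicate 4 gave VLDLR -0.64 (SE 0.28) in the whole uterus, and its range over the 8 removals was -1.0 to -0.62. These are the 9, and the cause was not tested. In CAR ipsilateral VLDLR (-1.07), CD36 (1.71), FABP4 (2.02) and FABP5 (0.70) passed the unadjusted limit with the scan month as a block. Non-RB replicate 3, alone in its month, drops out. In CAR contralateral FABP3 (-1.93) passed with the month, and FABP3 (-2.22) and PPARG (0.77) with the slide. All are outside the report's test.

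Counts of probes with an adjusted p under 0.05 moved for CAR against ICAR from 174 to 64 with normexp background correction, 531 with scan month as a block, 0 in RB or in non-RB arrays alone and 0 without slide 1, and ranged from 0 to 926 over the 32 removals of an array, 21 of which gave 0. For the horns the count was 0, and 1 with slide or scan month as a block. Leaving out replicates gave 0 to 0 for the horns, the interactions, the whole uterus, CAR ipsilateral, ICAR ipsilateral and CAR contralateral, and 0 to 1 in ICAR contralateral, where non-RB replicate 1 is on slide 1. The methods' t-test put 462, 457, 239, 262 and 292 probes under an unadjusted limit of 0.05 in CAR ipsilateral, ICAR ipsilateral, CAR contralateral, ICAR contralateral and the whole uterus, and 0 in each after Benjamini-Hochberg adjustment. The whole uterus had 47 with the 32 arrays as independent samples.

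Replicate numbers within a group deviated together, with a mean correlation across probes of 0.41 for RB (22 of 24 pairs over 0.1) and 0.38 for non-RB (21 of 24). An RB and a non-RB cow of the same number had 0.13 on average, over 0.1 in 11 of 16 pairs, and are taken to share only a number. The replicate block gave 1086 probes for CAR against ICAR and 1 for the horns. In these fits the block is the presumed cow. With it PPARG (-0.30), CD36 (-0.59) and FABP5 (0.34) passed the unadjusted limit between CAR and ICAR, not set against all probes. The RB effect on APOE differed between CAR and ICAR by 0.61 (SE 0.20), also past it. Between RB and non-RB cows the replicate block instead pairs different animals by number, a pairing that the design does not give. Its SEs and passed limits are therefore no ground for a conclusion. Under that pairing FABP4 had 1.23 in CAR ipsilateral (SE 0.37), 0.98 in ICAR contralateral (SE 0.23) and 0.76 in the whole uterus (SE 0.30). FABP3 had -0.83 in the whole uterus (SE 0.33) and VLDLR -0.66 in ICAR ipsilateral (SE 0.26), all past the unadjusted limit. Signal near background limits LPL (30 of 32 arrays) and FABP4, whose levels in 8 of 8 groups moved by over 1 SD with normexp.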
